A study of Mus musculus with 10 samples.

Results

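The numbered zinc finger genes of mouse embryonic fibroblasts are described here: genes whose symbol is Zfp followed by digits only, kept where the mean FPKM over 8 RNA-seq libraries was at least 5. FPKM is a level per length and depth, namely the fragments of a transcript divided by its length in kilobases and by the mapped fragments of the library, and was summed over the transcripts of a gene. The rule left 140 genes of the 339 numbered Zfp genes listed, in a table of 22552 genes. Another 115 numbered Zfp genes had a mean between 1 and 5 FPKM, and 14 were listed at 0 in every library.

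The study sequenced polyadenylated RNA in 4 groups of 2 libraries. Cells were mock transfected and kept at either 37 °C or 32 °C, or were given siCirbp or siRbm3 and kept at 37 °C. Cirbp and Rbm3 are RNA-binding proteins known to rise in mild cold, and the study examined their binding and their influence on the transcriptome. No group received a control siRNA, and no siRNA group was kept at 32 °C. Binding was mapped by PAR-CLIP, in which RNA labelled with 4-thiouridine (100 µM for 16 h) is crosslinked to a protein. There was 1 library of fibroblasts stably expressing FLAG-tagged Cirbp and 1 of fibroblasts stably expressing FLAG-tagged Rbm3. Both PAR-CLIP libraries came from cells at 37 °C, so binding at 32 °C was not mapped. No label tells if replicate libraries came from different cultures, or if siRNA libraries 1 and 2 carried different siRNAs, so p-values measure only the spread between these libraries.

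Most Zfp proteins carry tandem C2H2 fingers, loops held by zinc, that read DNA sequence, and many also carry a KRAB domain. KRAB recruits the corepressor Trim28 and with it chromatin silencing enzymes, and the family is known for silencing retroelements and for lying in gene clusters that arose by duplication. The number in a Zfp name is not a function: Zfp36, or tristetraprolin, has CCCH fingers and binds AU-rich mRNA to speed its decay, and Zfp207 binds the checkpoint protein Bub3 and spindle microtubules.

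The first promoters are shown because their genes moved most clearly or carry the motifs counted further on. Each run is the 250 bases before the RefSeq start in GRCm38.p6, read on the strand of the gene, with capitals for 3 motifs on either strand. These are GGGCGG, known as a GC box, the CCAAT box, and the ETS-type motif CCGGAAGT. Zfp207 lies at chr11:80383029-80383278 (+), Zfp655 at chr5:145231492-145231741 (+), Zfp36 at chr7:28379229-28379478 (-) and Zfp319 at chr8:95331812-95332061 (-).
Zfp207: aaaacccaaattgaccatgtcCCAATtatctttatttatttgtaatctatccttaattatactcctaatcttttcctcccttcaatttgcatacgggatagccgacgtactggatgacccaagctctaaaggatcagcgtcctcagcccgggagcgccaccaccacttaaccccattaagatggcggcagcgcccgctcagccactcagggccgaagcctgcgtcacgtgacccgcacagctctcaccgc
Zfp655: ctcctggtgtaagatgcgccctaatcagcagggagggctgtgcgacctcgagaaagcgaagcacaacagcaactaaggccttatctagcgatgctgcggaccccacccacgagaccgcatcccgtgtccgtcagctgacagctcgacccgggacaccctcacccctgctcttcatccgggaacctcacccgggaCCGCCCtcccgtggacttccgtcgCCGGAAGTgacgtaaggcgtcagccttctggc
Zfp36: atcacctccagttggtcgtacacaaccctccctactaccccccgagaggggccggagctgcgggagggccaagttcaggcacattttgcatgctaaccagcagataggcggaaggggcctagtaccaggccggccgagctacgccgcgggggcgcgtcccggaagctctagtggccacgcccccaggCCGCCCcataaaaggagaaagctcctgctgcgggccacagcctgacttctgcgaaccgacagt
Zfp319: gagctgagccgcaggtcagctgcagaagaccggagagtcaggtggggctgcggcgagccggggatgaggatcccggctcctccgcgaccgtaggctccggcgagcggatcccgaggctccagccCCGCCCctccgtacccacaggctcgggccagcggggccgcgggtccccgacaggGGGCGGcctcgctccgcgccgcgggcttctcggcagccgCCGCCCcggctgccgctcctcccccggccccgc

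A second set shows how 3 neighbours on chromosome 17, described further on, are arranged. Zfp942 and Zfp943 start head to head, 94 bases apart in mm9, so their windows (chr17:21962465-21962714, -, and chr17:21962309-21962558, +) overlap on opposite strands. Capitals mark this overlap, or the part of it that also occurs before Zfp944 (chr17:22361401-22361650, -). The windows of Zfp942 and Zfp944, which lie apart, match at 224 of 225 positions aligned without gaps. Transcript sequences were not compared.
Zfp942: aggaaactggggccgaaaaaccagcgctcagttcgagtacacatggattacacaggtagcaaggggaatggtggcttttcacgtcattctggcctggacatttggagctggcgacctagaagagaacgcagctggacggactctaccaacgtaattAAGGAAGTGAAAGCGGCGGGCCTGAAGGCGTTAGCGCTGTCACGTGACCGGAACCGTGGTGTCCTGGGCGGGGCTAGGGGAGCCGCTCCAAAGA
Zfp943: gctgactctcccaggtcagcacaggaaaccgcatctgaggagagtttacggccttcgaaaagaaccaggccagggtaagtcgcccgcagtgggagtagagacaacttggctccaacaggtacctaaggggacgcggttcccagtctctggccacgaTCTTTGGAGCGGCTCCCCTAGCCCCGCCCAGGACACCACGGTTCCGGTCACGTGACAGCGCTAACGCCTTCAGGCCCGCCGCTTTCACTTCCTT
Zfp944: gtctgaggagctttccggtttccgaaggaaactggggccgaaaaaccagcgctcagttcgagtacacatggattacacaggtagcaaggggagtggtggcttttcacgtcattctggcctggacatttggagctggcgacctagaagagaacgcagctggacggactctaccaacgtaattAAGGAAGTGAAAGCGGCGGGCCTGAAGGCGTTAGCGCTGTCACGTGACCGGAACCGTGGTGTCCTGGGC

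The 8 libraries held 24.8 to 27.8 M fragments. Cirbp stood at 15.9 and 17.1 FPKM in mock cells at 37 °C, at 34.5 and 37.2 at 32 °C, and at 10.8 and 6.07 in the siCirbp libraries. In the libraries labelled siRbm3-1 and siRbm3-2 Cirbp stood at 13.8 and 23.8 FPKM, below and above both mock libraries at 37 °C. Rbm3 was low throughout, at 1.85 and 2.21 FPKM in mock cells at 37 °C and 3.64 and 3.21 at 32 °C. The library labelled siRbm3-1 had 3.05 FPKM of Rbm3, above both mock libraries at 37 °C and against its label, while the library labelled siRbm3-2 had 1.16. Both siCirbp libraries had more Rbm3 than mock cells at 37 °C, at 5.54 and 7.55 FPKM. Of 12 fibroblast markers 10 reached a mean of 1 FPKM and Thy1 was listed at 0. The summed fibroblast markers ran from 9667 to 9716 FPKM in mock cells at 37 °C, 11160 to 13922 at 32 °C, 6074 to 6975 in siCirbp and 9777 to 11895 in siRbm3 libraries. S100a4 carried most of the higher sum at 32 °C, at 7339 and 10168 FPKM against 4421 and 4315 at 37 °C. Dcn, at 1096 and 1188 against 586 and 542, Col3a1 and Pdgfra were also higher. Col1a1, at 194 and 177 against 675 and 775, Col1a2, Fn1, Vim, Pdgfrb and Fbn1 were lower. Epithelial markers summed to at most 0.23 FPKM and markers of pluripotent cells to at most 1.46, with Pou5f1, Zfp42 and Dppa5a listed at 0. The macrophage list summed to 10.2 to 10.4 FPKM in mock cells at 37 °C, 17.6 to 21.4 at 32 °C, 3.61 to 8.04 in siCirbp and 7.62 to 15.8 in siRbm3 libraries, nearly all of it Cd68, with Emr1 listed at 0. The muscle list summed to 47.7 to 52.4 FPKM, 37.8 to 40.1, 66.7 to 66.8 and 52.2 to 67.4 in the same order, nearly all of it Tnnt2, with Myod1 and Actc1 listed at 0. The endothelial list, nearly all Flt1, summed to 9.71 to 17.4 FPKM over the 8 libraries. The neural list, carried by Sox2 and Nes, summed to 50.4 to 53.9 FPKM in mock cells at 37 °C, 17.5 to 18.4 at 32 °C, 57.1 to 77.0 in siCirbp and 64.0 to 68.4 in siRbm3 libraries. The part of these differences in the Zfp results was not tested.

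Most of the 140 genes were modest transcripts. The median of their mean FPKM was 9.86, against 13.44 for the 10901 genes with a mean of at least 1 FPKM, and 71 lay between 5 and 10 FPKM, 61 between 10 and 30, and 8 at 30 or above. The lowest number of reads behind any of their values was 111. Their main transcripts were long, with a median of 3539 nt against 2766 nt for all genes tested. The genes lay on 20 chromosomes, with 28 on chromosome 7, 16 on chromosome 8 and 14 on chromosome 17.

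Zfp207 was the highest, with a mean of 83.3 FPKM, followed by Zfp664 at 64.1, Zfp740 at 59.8, Zfp91, an E3 ubiquitin ligase of NF-kB signalling, at 54.9, Zfp106, an RNA-binding protein needed by motor neurons, at 49.5 and Zfp358 at 41.2. These are levels per length. Zfp664 ran from 53.8 to 74.7 FPKM, Zfp740 from 45.4 to 74.99 and Zfp358 from 33.9 to 58.1 over the 8 libraries, so the ranges of these neighbours in the order overlapped. Just inside the threshold lay Zfp944 (mean 5.118), Zfp790 (5.035) and Zfp444 (5.026), and just outside it Zfp428 (4.991), Zfp81 (4.91) and Zfp867 (4.89). Zfp57, which protects methylation imprints with Trim28, had 27.8 to 38.0 FPKM in all 8 libraries.

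**Figure D1:**
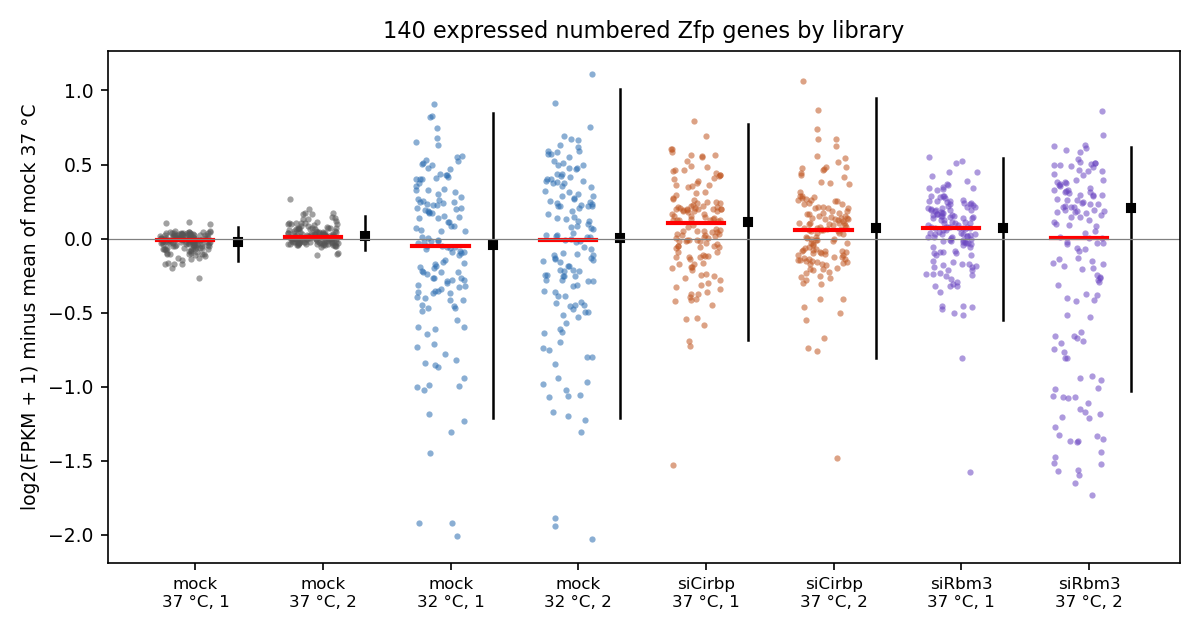
Difference of log2(FPKM + 1) from the mean of the mock libraries at 37 °C (vertical axis) for the 140 numbered Zfp genes in each of the 8 libraries (horizontal axis); coloured points are genes, red lines their medians, black squares the medians of all 10901 genes tested and black lines their 5th to 95th percentiles. Points spread widely below 0 in the 32 °C libraries and in the library labelled siRbm3-2, where 28 genes lie at -1 or below.

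At 32 °C, 6 of the 140 genes rose and 24 fell against mock cells at 37 °C. Of all genes tested, 13.0% rose and 19.8% fell, against 4.29% and 17.1% of the Zfp genes, so the share of rises was below the background and the share of falls near it. In bulk RNA, less RNA per cell and fewer cells that express a gene cannot be told apart. All calls are by limma on log2(FPKM + 1), two-sided, with Benjamini-Hochberg adjustment over all genes at a threshold of 0.05. Fold changes are on that scale, which understates the change of low genes. The median log2 difference was -0.04 for the Zfp genes and -0.02 for all genes.

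The share of rises among the calls depended on the scaling. With median centring, which moved the median of all genes up by 0.125 log2, 14 Zfp genes were higher and 20 lower (19.4% and 15.8% of all genes), and with quantile normalization 14 and 22 (17.4% and 18.3%). With the trend on transcript length removed, 10 were higher and 19 lower (11.0% and 14.5% of all genes). Without the library labelled siRbm3-2, whose spread enters the shared error, 23 were higher and 32 lower, while all genes gave 20.5% and 26.0%. Leaving out siRbm3-1 instead also gave 23 and 32. With only the mock groups fitted, 44 were higher and 47 lower, against 32.6% and 36.7% of all genes.

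Among 3030 other genes within the middle range of the Zfp genes for level and transcript length (10th to 90th percentile, 5.75 to 22.3 FPKM and 1956 to 6747 nt), 9.21% rose and 25.2% fell. Of the 87 Zfp genes inside the same limits 1 rose and 14 fell, or 1.15% and 16.1%. Both 32 °C libraries lay above both mock libraries at 37 °C for 59 Zfp genes (42.1%, against 41.0% of all genes) and below both for 63 (45.0%, against 43.8%). The temperature groups thus stood apart for most Zfp genes, as they did for most genes. The mean used to choose the Zfp genes counts the 32 °C libraries, so some genes near 5 FPKM passed through them.

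The largest falls were those of Zfp36, Zfp703 and Zfp395. Zfp36 had 33.6 and 35.5 FPKM in mock cells at 37 °C and 8.37 and 7.69 at 32 °C, a log2 change of -1.98 (SE 0.24, limma adjusted p = 0.00276). It was also below mock cells at 37 °C in every siRNA library, with 11.3 and 11.7 FPKM after siCirbp and 10.9 and 19.3 in the siRbm3 libraries. Zfp703, a corepressor amplified in breast cancer, went from 28.6 and 33.1 to 6.90 and 7.30 FPKM (log2 change -1.97, limma adjusted p = 0.00202). Its siRNA libraries, at 25.9 to 38.5 FPKM, lay on both sides of the mock libraries at 37 °C.

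Zfp395, a nuclear factor named for binding the huntingtin gene promoter, went from 20.7 and 20.8 to 4.73 and 4.88 FPKM (log2 change -1.91, limma adjusted p = 0.00413). Zfp553 had 12.9 and 14.3 FPKM at 37 °C and 4.36 and 4.89 at 32 °C, and Zfp319 had 9.44 and 10.6 against 3.68 and 3.80. Zfp609, a partner of Nipbl and Integrator in transcription, had 14.7 and 14.6 FPKM at 37 °C against 5.86 and 5.69 at 32 °C. The log2 changes of these 3 were -1.38, -1.21 and -1.21. In all 6 genes the temperature groups were far apart and the pairs of libraries close together.

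The other falls were smaller, down to -0.48 for Zfp687. In all, 12 called genes fell at least 2-fold on the log2(FPKM + 1) scale and none rose as much. Taking each 32 °C library alone, 6.43% and 7.86% of the Zfp genes lay at least 2-fold below the mock mean at 37 °C. Of all genes tested, 8.18% and 8.24% did. At least 2-fold above it lay 0.0% and 0.714% of the Zfp genes, against 2.86% and 5.26% of all genes. Among the 12 were Zfp217, an oncogenic subunit of CtBP corepressor complexes (13.9 and 14.3 to 6.43 and 6.23 FPKM), Zfp516, an activator of the brown fat program (16.6 and 17.7 to 8.07 and 7.72), and Zfp608, the paralog of Zfp609 (8.22 and 8.20 to 3.79 and 3.40). The paralogs fell by 1.01 and 1.21 on the log2 scale. Zfp516 has a gene model overlapping another gene, as do 9 other genes of the 140, and strand was not stated, so its reads cannot be told from those of the overlapping gene.

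The 6 rises were smaller than the largest falls. Zfp207 had 59.2 and 61.6 FPKM at 37 °C and 107.5 and 131.6 at 32 °C (log2 change 0.97, SE 0.22, limma adjusted p = 0.0158). The siCirbp-2 value carries the status FAIL in the deposited table, as do those of Zfp217 in mock-1 at 37 °C and siRbm3-1, Zfp281 in mock-1 at 37 °C and Zfp266 in siCirbp-2. Zfp207 had 89.0 and 89.5 FPKM after siCirbp and 78.2 and 50.2 in the siRbm3 libraries, so both siCirbp values lay between the temperature groups. Zfp655 had 22.8 and 22.0 FPKM at 37 °C and 42.9 and 43.2 at 32 °C (log2 change 0.91, limma adjusted p = 0.0200). The siCirbp libraries of Zfp655, at 23.1 and 22.5 FPKM, were near those of mock cells at 37 °C.

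Zfp800 went from 5.34 and 5.29 to 10.2 and 8.67 FPKM, with a log2 change of 0.72. Its mean of 5.723 FPKM reached the threshold of 5 only with the 32 °C libraries counted. Zfp330, a protein found at nucleoli and centromeres, went from 15.9 and 15.4 to 22.5 and 27.1 FPKM. Zfp869 had 6.19 and 6.29 FPKM at 37 °C against 9.33 and 9.92 at 32 °C, and Zfp1 had 13.1 and 13.9 against 18.1 and 20.5. In each of these genes both 32 °C libraries were above both mock libraries at 37 °C. When any 1 mock library was left out, the rises were no longer called and fewer falls were. Each such fit leaves 1 library in a group, and calls over all genes tested became fewer in both directions too. Zfp36, Zfp703, Zfp395, Zfp553 and Zfp319 were called in all 4 of those fits.

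**Figure D2:**
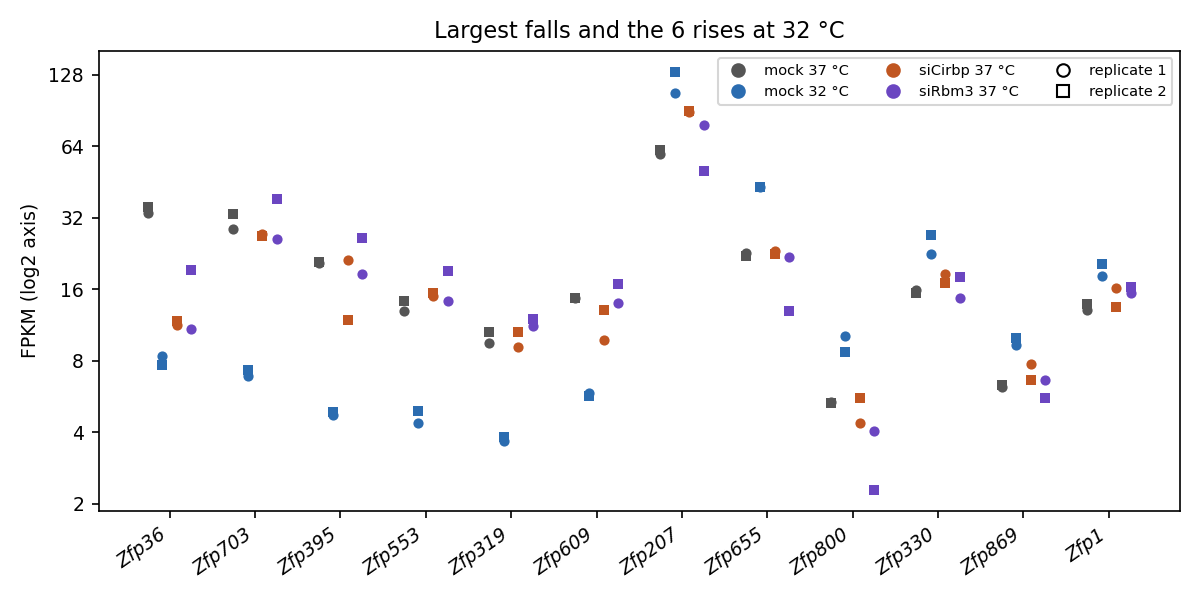
FPKM (vertical axis, log2 scale) of the 6 largest falls (left) and the 6 rises (right) at 32 °C in each library; colour gives the group, circles replicate 1 and squares replicate 2. Zfp36 is the one gene of the 12 whose siRNA libraries all lie well below the mock libraries at 37 °C.

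Grouped by role, 11 of the Zfp genes were listed under RNA or translation. Of these Zfp207 rose and Zfp36 fell at 32 °C, or 9.09% each, where 13.0% of all genes rose and 19.8% fell. Of 28 with known roles in chromatin, development or signalling 1 rose and 9 fell (3.57% and 32.1%, against the same 13.0% and 19.8%), with a median log2 difference of -0.17. The 1 rise was again Zfp207, as the lists share some genes. The 3 that silence retroelements or imprints, Zfp57, Zfp445 and Zfp961, had both 32 °C libraries above both mock libraries at 37 °C without passing the test. Of all genes tested, 41.0% had both 32 °C libraries above. Zfp445 had 26.2 and 25.4 FPKM at 37 °C and 29.6 and 27.4 at 32 °C, a log2 difference of 0.14 (limma adjusted p = 0.836).

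Partners of the KRAB domain were counted from a list. Of 28 measured corepressor and heterochromatin genes 13 fell (46.4%, against 19.8% of all genes) and 0 rose (against 13.0%) at 32 °C, with a median log2 difference of -0.44 against -0.02 for all genes. Trim28, the KRAB corepressor itself, went from 67.0 and 73.8 to 28.6 and 31.7 FPKM, a log2 change of -1.20 (limma adjusted p = 0.00399). Chd4, the helicase of the NuRD complex, fell by 1.24 on the log2 scale, Mta1, another NuRD subunit, by 1.28 and Dnmt1, the maintenance DNA methyltransferase, by 1.62. After siCirbp, Rbbp7, a histone-binding chaperone, was the 1 corepressor gene called, from 46.7 and 48.3 to 80.9 and 87.1 FPKM (log2 change 0.81, limma adjusted p = 0.0369).

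Other C2H2 families and relatives of Zfp36 were counted in the same way. Of 67 measured members of families such as Egr, Klf and Snai, 26 fell at 32 °C (38.8%, against 19.8% of all genes) and 1, Klf10, rose (1.49%, against 13.0%), with a median of -0.45. The smallest adjusted p-values belonged to Egr1 (log2 change -2.47), Klf2 (-2.15), Egr2 (-2.29) and Snai1 (-1.90), which are early-response, endothelial or mesenchymal transcription factors. Of 14 CCCH genes related to Zfp36, 8 fell (57.1%) and 0 rose, with a median of -0.68, among them its relative Zfp36l2, from 78.0 and 92.0 to 44.4 and 45.8 FPKM. These lists were not compared with one another by a test.

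Length went along with the temperature difference. With the Zfp genes cut into 3 by length, in the part with the longest main transcripts (above 4202 nt) 15 of 47 fell (31.9%) and 0 rose, with a median log2 difference of -0.36. Of other genes of that length within the range of level 34.7% fell and 3.26% rose, with the same median, -0.36. In the shortest part (up to 2892 nt) 3 rose and 6 fell (6.38% and 12.8%, against 17.2% and 13.9% of other genes), with a median of 0.06 against 0.14. In the middle part 3 rose and 3 fell (6.52% each, against 10.3% and 24.2%). Spearman's rho between length and the temperature difference was -0.23 over the 140 Zfp genes and -0.34 over all 10901 genes, given as a description of genes measured in the same 8 libraries.

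After siCirbp, Zfp36 was the only one of the 140 called, against 3.39% of all genes tested (2.77% higher and 0.624% lower). It went from 33.6 and 35.5 FPKM to 11.3 and 11.7, a log2 change of -1.50 (SE 0.24, limma adjusted p = 0.0286). At an unadjusted p under 0.05 there were 10 Zfp genes, and the share of all genes at that level was not counted. Zfp961, which represses endogenous retroviruses, had the smallest p of those above mock cells without passing. It had 5.90 and 5.55 FPKM in mock cells at 37 °C and 10.7 and 11.3 after siCirbp, a log2 difference of 0.83 (limma adjusted p = 0.0830).

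Zfp410, an activator of Chd4, had 9.50 and 9.03 FPKM in mock cells and 13.8 and 13.4 after siCirbp, with a log2 difference of 0.51 that did not pass (limma adjusted p = 0.0872). Zfp740 had 55.4 and 55.6 FPKM against 74.99 and 68.1, a difference of 0.36 that also missed the threshold. Of those lower without passing, Zfp281, a factor of pluripotent cells, had 27.9 and 27.8 FPKM in mock cells and 18.8 and 16.3 after siCirbp (log2 difference -0.64, limma adjusted p = 0.165). With its highest transcript alone the difference of Zfp281 was 0.079. Zfp9 had a difference of -0.51. Both siCirbp libraries lay above both mock libraries for 50 Zfp genes (35.7%, against 38.5% of all genes) and below both for 33 (23.6%, against 21.9%).

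The Zfp36 call was lost with a replicate block (limma adjusted p = 0.0617), with all listed genes that have any signal included (0.0632), with those groups fitted alone (0.0513) and with any 1 mock or siCirbp library left out (0.0509 to 0.282). Without the library labelled siRbm3-2, 8 Zfp genes were called after siCirbp, 5 higher and 3 lower, against 10.5% and 4.27% of all genes. The 5 were Zfp961, Zfp410, Zfp326, Zfp422 and Zfp207, and the 3 were Zfp36, Zfp281 and Zfp516.

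No Zfp gene was called in the siRbm3 libraries against mock cells at 37 °C, and no gene of the 10901 was (0.0%), by limma. At an unadjusted p under 0.05 there were 17 Zfp genes, and the share of all genes at that level was not counted. Zfp36 had 10.9 and 19.3 FPKM against 33.6 and 35.5 (log2 difference -1.19, limma adjusted p = 0.350), and Zfp281 had 15.5 and 8.73 against 27.9 and 27.8 (-1.19). Both genes lay below mock cells in both libraries labelled siRbm3, and in both the libraries of that group were far apart. Of those above mock cells, the smallest p-values belonged to Zfp46 (difference 0.42), Zfp777 (0.42) and Zfp282 (0.41).

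Both siRbm3 libraries lay below both mock libraries for 29 Zfp genes, or 20.7%, against 13.3% of all genes and 13.3% of the other genes in the range. They lay above both for 39, or 27.9%, against 37.2% of all genes. siCirbp against siRbm3 called no Zfp gene and 0.0367% of all genes (0.0183% in each direction), with 24 Zfp genes at an unadjusted p under 0.05. The share of all genes at that level was not counted here either. The smallest p-values were those of Zfp961 (log2 difference 1.01), Zfp943 (1.11) and Zfp942 (1.21), each with a limma adjusted p of 0.221, and in the other direction Zfp236 (-0.43), Zfp672 (-0.50) and Zfp516 (-0.46). The comparisons with mock cells at 37 °C share those control libraries.

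The 2 siRbm3 libraries differed from each other for many Zfp genes. In the library labelled siRbm3-2, 25 of the 140 genes were at least 2-fold lower than in siRbm3-1 (17.9%, against 5.17% of all genes), and 0 were as much higher (against 2.0%). Among the 3030 other genes in the range 5.78% were 2-fold lower, and of the 115 numbered Zfp genes of 1 to 5 FPKM 8 were (6.96%). In the other 3 groups no Zfp gene of the 140 differed 2-fold between its libraries. With 1 library on each side this is a difference between libraries and has no replicate check.

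The 5 lowest were Zfp871 with 18.5 FPKM in siRbm3-1 and 4.69 in siRbm3-2, Zfp445 with 26.6 and 7.85, Zfp192 with 7.29 and 1.85, Zfp397 with 13.0 and 3.89, and Zfp644 with 11.3 and 3.69. For all 25 genes siRbm3-2 was the lowest of the 8 libraries, which largely follows from choosing them by a low siRbm3-2 value. In 16 of the 25, siRbm3-1 was not below both mock libraries at 37 °C. Over all 140 genes siRbm3-2 was the lowest of the 8 libraries for 56 (40.0%, against 18.2% of all genes) and the highest for 38 (27.1%, against 27.9%). Those higher in siRbm3-2 than in siRbm3-1 were led by Zfp524, at 11.5 and 23.1 FPKM, and Zfp593, a ribosome biogenesis factor, at 4.28 and 8.22.

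With siRbm3-1 left out, limma called 34 Zfp genes lower and 1 higher than mock cells, against 7.5% and 1.22% of all genes. With siRbm3-2 left out it called 1 lower, Zfp36 (log2 change -1.58), and 0 higher, against 0.165% and 0.0367%. Without siRbm3-1, siCirbp against siRbm3 gave 43 Zfp genes higher and 6 lower, against 12.3% and 7.24% of all genes. In each of these fits the lone library is assumed to vary like the other groups. The count of Zfp genes below mock cells thus rests on the library labelled siRbm3-2.

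The difference between the siRbm3 libraries went against the temperature difference. Of the 59 Zfp genes with both 32 °C libraries above both mock libraries at 37 °C, 18 (30.5%) were at least 2-fold lower in siRbm3-2 than in siRbm3-1. Of the 63 with both below, 5 (7.94%) were. For the other genes in the range these shares were 10.3% and 2.42%, and for all genes tested 6.95% and 3.05%. These measures share no library. Spearman's rho between them was -0.47 over the 140 Zfp genes, -0.36 over the 3030 other genes in the range and -0.21 over all genes, across genes that were measured in the same libraries.

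Transcript length moved with this library difference as well. Of the longest part of the Zfp genes 27.7% were 2-fold lower in siRbm3-2, against 12.0% of other genes of that length in the range of level. In the middle part the shares were 17.4% and 5.39%, and in the shortest 8.51% and 2.58%. At each length the share of Zfp genes was above that of other genes. What part depth or RNA quality has in the difference between these libraries was not tested.

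**Figure D3:**
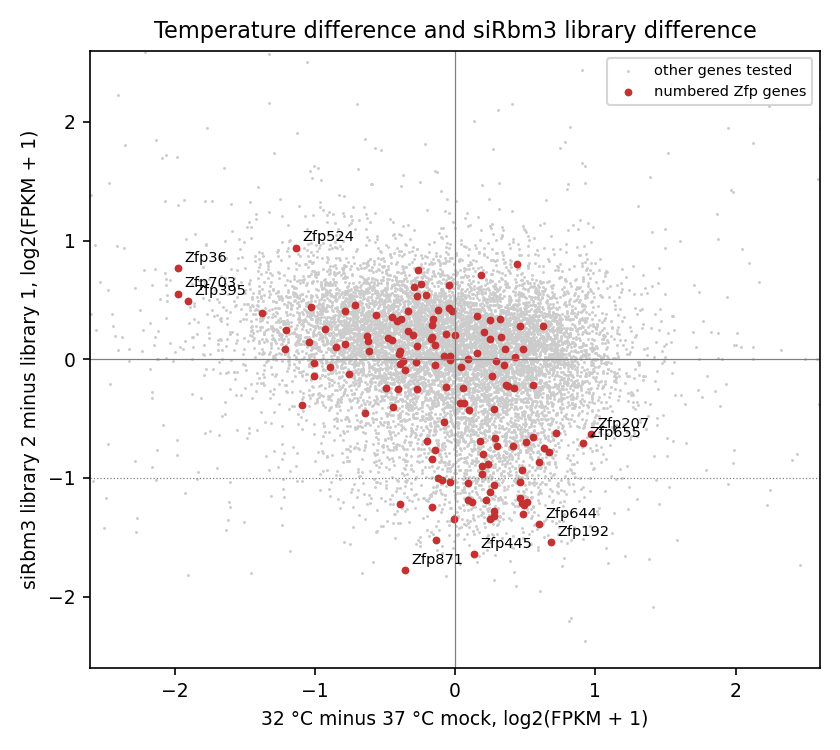
Each point is a gene, with the temperature difference of the mock groups on the horizontal axis and the difference of the library labelled siRbm3-2 from siRbm3-1 on the vertical axis, both in log2(FPKM + 1); red points are the 140 numbered Zfp genes, grey points other genes tested, and the dotted line marks a 2-fold lower level. Red points below the dotted line lie mostly right of 0, and 117 genes outside the axes at 2.6, none of them a red point, are not drawn.

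Many of the Zfp genes sit next to one another. Of the 140, 62 lay within 100 kb of another numbered Zfp gene and 78 lay alone. At 32 °C 2 of the 62 rose and 4 fell (3.23% and 6.45%), with a median log2 difference of 0.10. Of the 78 alone 4 rose and 20 fell (5.13% and 25.6%), with a median of -0.16, where 13.0% of all genes rose and 19.8% fell. Chained genes had shorter main transcripts than lone ones (medians 3258.5 and 3817.5 nt).

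On chromosome 17, 8 of the 140 lie within 1.35 Mb of mm9 (chr17:21145905-22498367), in the order Zfp160, Zfp51, Zfp53, Zfp948, Zfp760, Zfp942, Zfp943 and Zfp944. All 8 had both 32 °C libraries above both mock libraries at 37 °C, as 41.0% of all genes tested did. Zfp942, Zfp943 and Zfp944 (means 5.3, 5.387 and 5.118 FPKM) reached the threshold of 5 only with the 32 °C libraries counted. Their higher level at 32 °C is thus partly set by the choice of genes. Their log2 differences were 0.09 to 0.67, and none passed the test (limma adjusted p 0.0806 to 0.866). Zfp944, the gene with the largest difference, had 4.31 and 4.22 FPKM at 37 °C and 7.28 and 7.51 at 32 °C. Both siRbm3 libraries were below both mock libraries at 37 °C for all 8, as they were for 13.3% of all genes tested. The library labelled siRbm3-2 was the lower of that pair in each. Zfp160 had 5.62 FPKM in siRbm3-1 and 1.69 in siRbm3-2, and Zfp948 had 7.70 and 2.82. Both siCirbp libraries were above both mock libraries at 37 °C for 6 of the 8, and for 38.5% of all genes tested. Whether reads of these neighbours were split between similar transcripts was not tested.

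**Figure D4:**
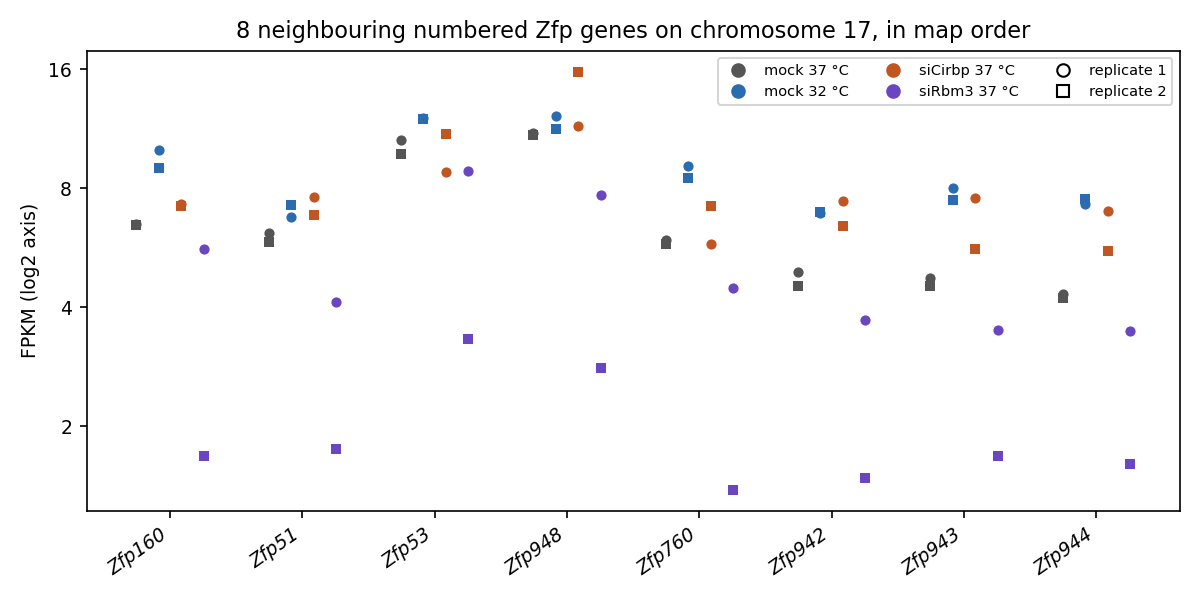
FPKM (vertical axis, log2 scale) of 8 numbered Zfp genes of chromosome 17, left to right in map order, in each library; colour gives the group, circles replicate 1 and squares replicate 2. In all 8 genes the lowest point is the library labelled siRbm3-2 and both 32 °C points lie above both mock points at 37 °C.

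Of 3 groups on chromosome 7, one had lower values in siRbm3-2 and the others higher ones. The first, at chr7:30553571-30954746 (mm9), holds Zfp790, Zfp27, Zfp74, Zfp260 and Zfp146. Of these 5, 4 were lower in siRbm3-2 than in siRbm3-1, Zfp260 and Zfp146 at least 2-fold, and Zfp27 was nearly level, at 8.02 FPKM in siRbm3-1 and 7.99 in siRbm3-2. In the same group 2 genes had both 32 °C libraries above both mock libraries at 37 °C, as did 41.0% of all genes tested. At chr7:134376957-134592672 (mm9) Zfp553 and Zfp768 fell at 32 °C, Zfp771 was lower without passing, at 13.1 and 19.4 FPKM against 11.0 and 12.9, and Zfp688 was higher without passing, at 7.56 and 8.43 against 8.90 and 9.50. At chr7:4866819-5005325 Zfp524 fell, and Zfp865 and Zfp580 had log2 differences of -0.33 and -0.24 that did not pass. The genes of these last groups were all higher in siRbm3-2 than in siRbm3-1. Of the remaining chains with at least 3 of the 140, Zfp397, Zfp35 and Zfp191 on chromosome 18 and Zfp868, Zfp869 and Zfp866 on chromosome 8 were all lower in siRbm3-2, and Zfp282, Zfp212, Zfp777 and Zfp746 on chromosome 6 all higher.

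GGGCGG, seen in 3 of the first 4 promoters printed, was the motif found in most Zfp promoters. The RefSeq table held a promoter for 108 of the 140, and motifs were searched on both strands of the 250 bases before the start. GGGCGG occurred in 59.3% of the Zfp genes and 35.4% of all 27025 genes with a promoter. CCGGAAGT occurred in 10.2% against 3.23%, ACTACA in 18.5% against 10.3%, CCAAT in 43.5% against 37.5% and TATAAA in 10.2% against 14.3%. The median GC content was 56.4% against 52.0%. The Zfp genes were chosen by level, while the 27025 genes include genes not expressed here. Promoters of other genes of like level were not counted, so these differences cannot be tied to the family. Among the 49 with both 32 °C libraries above both mock libraries at 37 °C GGGCGG occurred in 57.1%, and among the 43 with both below in 60.5%. The median GC content of these sets was 55.6% and 60.4%. Motifs overlap with base composition, and a match is a run of letters, not a bound site.

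The PAR-CLIP files put Cirbp sites in 14 of the 140 loci (10.0%, against 8.32% of all genes tested and 7.69% of the other genes in the range). Rbm3 sites lay in 23 (16.4%, against 8.79% and 9.74%), and 8 loci held sites of both proteins (5.71%, against 3.28% of all genes). There were 23 Cirbp and 49 Rbm3 sites, in 29 loci. Counting only sites of at least the library's median score, 10 loci held a Cirbp site and 15 an Rbm3 site. Of the numbered Zfp genes of 1 to 5 FPKM, 1.74% held a Cirbp site and 10.4% an Rbm3 site. Each protein has 1 library with no replicate and no background library, so these shares have no replicate check.

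Sites ran from 20 to 58 nt. The strand of the gene was known for 62 of the 72 sites, and all 62 were on it. Along the gene, 14 of 22 Cirbp sites and 21 of 40 Rbm3 sites lay in the last 20% of its span, and 2 and 5 in the first 20%. The deposited score, whose scale is not stated, had a median of 347 for the Cirbp sites and 360 for the Rbm3 sites.

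Zfp238, a BTB-domain repressor of neuronal development, held 10 sites, 3 of Cirbp and 7 of Rbm3, in mm9 at chr1:179374792-179380897. Its level was 6.89 to 9.19 FPKM in all 8 libraries and no comparison called it. Zfp281 held 9 sites, 3 of Cirbp and 6 of Rbm3 (chr1:138521478-138526968), and was lower in every siRNA library than in mock cells, without passing. Zfp207, Zfp148, a GC-box-binding factor, and Zfp91 held 5 sites each. The other genes with sites of both proteins were Zfp367, Zfp644 and Zfp800. Sites of both proteins overlapped in 3 loci, by 29 nt in Zfp207 at chr11:80209328-80209356, by 25 nt in Zfp281 at chr1:138521580-138521604 and by 21 nt in Zfp367 at chr13:64235047-64235067. In Zfp207 the crosslink position was also the same, and both sites ended 394 nt before the end of the gene. Sites in Zfp91 also overlap the gene model of U05342.

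**Figure D5:**
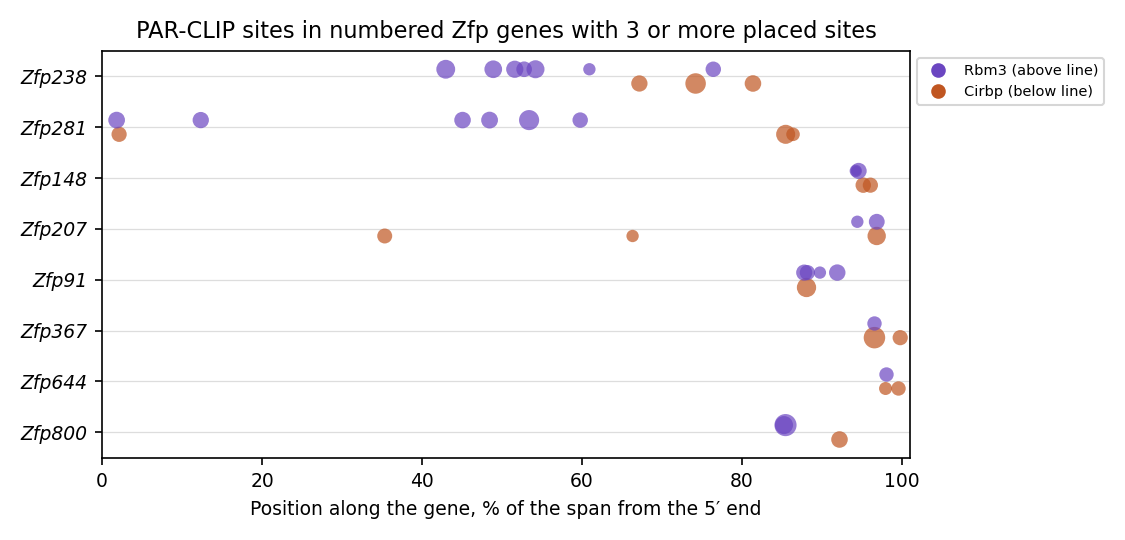
Position of each PAR-CLIP site, in percent of the gene span from its 5′ end (horizontal axis), for the 8 numbered Zfp genes with 3 or more sites and a known strand; purple points above each line are Rbm3, orange points below it Cirbp, and larger points have a higher deposited score. Sites of Zfp148, Zfp367, Zfp644 and Zfp91 cluster near the 3′ end, while Rbm3 sites of Zfp238 and Zfp281 spread through the middle of the gene.

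The 14 Zfp genes with a Cirbp site had a median temperature difference of 0.35 log2, against -0.07 for the 126 without. Of the 14, Zfp207 and Zfp800 rose at 32 °C (14.3%) and 0 fell, while of all genes tested with a Cirbp site 12.0% rose and 19.1% fell. Over all genes tested the medians were 0.02 with and -0.02 without a Cirbp site. In siRbm3-2 against siRbm3-1 the median was -0.70 with and -0.02 without a Cirbp site, and 6 of the 14 (42.9%) were 2-fold lower, against 19 of the 126 (15.1%). Over all genes tested these medians were -0.22 and 0.12, and the shares 14.7% and 4.31%. After siCirbp the medians were 0.14 and 0.08. The 23 genes with an Rbm3 site had a median temperature difference of -0.15, with 2 rises and 7 falls (8.7% and 30.4%), against -0.04 for the 117 without. All genes tested with an Rbm3 site had a median of -0.22, with 7.41% risen and 27.8% fallen. The siRbm3 difference from mock cells had a median of 0.05 for the 23 Zfp genes with an Rbm3 site, against 0.04 for the 117 without. Over all genes tested these medians were 0.06 with and 0.12 without an Rbm3 site.

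The share of a gene's FPKM carried by its main transcript was tested for 26 Zfp genes among 1333 genes with at least 2 transcripts of 10% or more. None of the 26 was called by limma in any comparison. Of all 1333 genes, 2 were called at 32 °C and 0 in each of the other comparisons. At an unadjusted p under 0.05 there were 5, 5, 1 and 3 of the 26 for 32 °C, siCirbp, siRbm3 and siCirbp against siRbm3. The shares of all genes at that level were not counted. The smallest p-values at 32 °C were those of Zfp862, Zfp672 and Zfp281. The main transcript of Zfp862 carried 79.5% and 75.6% of the FPKM at 37 °C and 56.2% and 38.6% at 32 °C (limma adjusted p = 0.183), and that of Zfp672 73.1% and 68.2% against 84.2% and 87.8%. The split was unstable for other genes: in Zfp212 the main transcript had 71.5% and 100.0% in mock cells at 37 °C and 0.25% and 100.0% at 32 °C. In Zfp281 it had 38.7% and 86.6% at 37 °C and 98.1% in every other library, and the first of these values carries the status FAIL in the deposited table.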

How the data were processed

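Per the labels, polyadenylated RNA was read as single-end 76 nt reads. Alignment with TopHat 1.1.2 to mm9 is named in the submitters' processing notes. The authors deposited FPKM and coverage for each RefSeq transcript, and the counting tool, strand setting and treatment of reads with several positions are not given in the sources used here. The PAR-CLIP files deposited by the authors list mm9 sites with a score from 1 to 1000 and a filter at 0.05 whose meaning is not spelled out, per the file headers.

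FPKM were summed per gene. Reads per gene came from the ratio of coverage to FPKM, which is 1 constant per library. Limma 3.58.1 (R 4.3.3) was fitted to log2(FPKM + 1) of the 10901 genes with a mean of at least 1 FPKM, with 4 group means, trend and robust moderation. Mock 32 °C and both siRNA groups were each compared with mock 37 °C, and the siRNA groups with each other. The fit was tested on simulated data, where 94% of changes of 1 log2 were recovered for 32 °C. There, genes of like level had the same spread in every group. In the data the siRbm3 libraries differed by a median of 0.31 log2 over all genes, against 0.09 for mock cells at 37 °C. The 94% therefore does not apply to genes with a wide spread. Promoters came from RefSeq (GRCm38.p6), matched by symbol, and a site was placed in a gene when it overlapped a transcript span. SD, where shown, is over 2 libraries. Protein sequences and the sequences of the PAR-CLIP sites were not used here.

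The Zfp genes, the role lists and the tests were chosen with earlier results of these data known. Named genes are the 6 largest rises and falls called per comparison, or the 3 smallest p where fewer than 3 were called, the 6 highest levels, the neighbours of the threshold, genes with sites of both proteins or most sites, and up to 4 of each partner list. The genes listed between the siRbm3 libraries, the chromosome groups and further examples were chosen after their values were seen.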

Additional observations from a re-analysis of the deposited data

How the results depend on the processing

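The count of Zfp genes called at 32 °C was 30 and ran from 6 to 55 when single libraries were left out, with the low values for a mock library and 55 for either siRbm3 library. With only the groups compared in the fit it was 91 (44 higher and 47 lower), and all 30 were among them. After siCirbp the count was 1 and became 0 without the filter on level, under a replicate block (0) and when only the compared groups were fitted (0), and ran from 0 to 8 with single libraries left out. For siRbm3 it ran from 0 to 35 and for siCirbp against siRbm3 from 0 to 49, the highest values without siRbm3-1, where 43 of the 49 were higher after siCirbp. Rbm3 sites of at least the median score lay in 15 Zfp loci in place of 23. With the highest transcript alone, the siCirbp difference of Zfp281 reversed to 0.079. The causes of these changes were not tested.

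The replicate numbers did not pair the libraries: deviations of libraries with the same number correlated at -0.153 to 0.091 between groups. With the replicate block the counts were 27 at 32 °C, of which 26 were among the 30, and 0 in the other comparisons. A crossed block for siCirbp against siRbm3, added after the data were seen, gave 0 Zfp genes. With chains of 50 kb and 200 kb, added likewise, the median of chained genes at 32 °C was 0.10 and 0.12. Of the values of named genes under the alternatives, 448 kept their direction and their side of the threshold, 46 lost and 15 gained a call, and 1 changed sign. Read numbers under 200 limit the shortest and lowest genes, such as Zfp524 with 133.8 reads in its lowest library.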
